A study of Bos taurus and Sus scrofa with 10 samples.

Results

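Transcripts of Polycomb repressive complex genes were followed through preimplantation development in cattle (Bos taurus, cow) and pigs (Sus scrofa). The 10 genes listed were EZH1, EZH2, EED, SUZ12, JARID2, MTF2, RNF2, RING1, BMI1 and PCGF6, and a row was taken when its name equalled one of these symbols. All 10 were found among the 22845 rows of the cow table and 9 among the 21867 rows of the pig table, each once; BMI1 was not analysed in pig. Total RNA was sequenced at 5 stages per species: oocytes, embryos of 2 to 4 cells, embryos of 8 to 16 cells, morulae (compacting balls of cells) and blastocysts (hollow embryos whose outer trophectoderm surrounds an inner cell mass). Each stage of each species had 1 library, 10 in all, so no difference below has a replicate check and no p-value is given. Breed, age, treatment, the source of the embryos and the number pooled in a library are not given in the sources used here.

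Polycomb proteins keep developmental genes silent by marking histones. Polycomb repressive complex 2 (PRC2) methylates lysine 27 of histone H3 (H3K27). Its catalytic subunit is EZH2 or the weaker EZH1, and EED and SUZ12 are required for its activity and stability. Accessory proteins sort PRC2 into forms that exclude each other: one carries a Polycomb-like protein such as MTF2 or PHF19, the other JARID2 and AEBP2. Polycomb repressive complex 1 (PRC1) attaches ubiquitin to histone H2A through RNF2 (also RING1B) or RING1 (RING1A), each paired with a PCGF protein such as BMI1 (PCGF4) or PCGF6. In mammals the oocyte stores messenger RNA that is degraded after fertilisation while the embryonic genome takes over transcription. A bulk library cannot tell stored RNA from new RNA, nor fewer cells of a type from less RNA per cell.

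Levels are RPM, reads scaled to 1000000 reads of the library, and are not divided by gene length. They compare a gene between stages of its species and do not rank genes. Read totals ran from 3002751 to 14182046 per library, so the limit that a count of 0 allows (3 reads) was 0.212 RPM in the deepest library, the cow blastocyst, and 0.999 RPM in the shallowest, the pig morula. Mitochondrial genes took 4.40% of the reads in cow oocytes and 30.2% in cow blastocysts, and 6.06% and 18.6% in pig. Marker lists were set against the stage labels: 10 oocyte markers summed to 5406 RPM in cow oocytes and 0.282 RPM in cow blastocysts (9 of them at 0 reads), and 9 blastocyst markers to 37.1 and 2812 RPM. In pig 9 oocyte markers summed to 5279 and 22.5 RPM, and 8 blastocyst markers to 1.18 and 6626 RPM, with NANOG, SOX2 and SOX17 at 0 reads in pig blastocysts. Of 10 cumulus cell markers 7 reached 1 RPM in cow oocytes (summed 434.7 RPM, AMH at 0 reads), and 4 of 8 did in pig oocytes (summed 76.4 RPM, with TNFAIP6, PTGS2 and INHBA at 0 reads). Over the 5 stages their sum had a minimum of 34.6 RPM in cow (29.6 RPM in pig), in morulae. Its maximum was 988.5 RPM (1845 RPM in pig), in blastocysts, where much of the list was absent. HAS2, PTX3, TNFAIP6, GREM1 and AMH had 0 reads in the cow blastocyst library, and 5 of 10 markers reached 1 RPM. The pig blastocyst library had 0 reads of PTX3, GREM1 and INHBA, and 4 of 8 markers reached 1 RPM. The part of the cumulus marker sum in the results below was not tested.

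EED, the subunit that reads the H3K27 mark and is needed for PRC2 activity, had the widest range over the stages of all listed genes in both species. Cow EED measured 5.27 RPM in oocytes (26 reads), 8.11 RPM in 2-4-cell embryos, 218 RPM in 8-16-cell embryos, 221 RPM in morulae and 70.5 RPM in blastocysts. Pig EED had 0 reads in oocytes and then measured 7.01, 84.0, 292 and 76.4 RPM in the same order. EED was thus low in oocytes of both species and lower in both blastocyst libraries than in morulae. Its maximum was in morulae in pig and, in cow, in 8-16-cell embryos and morulae, whose intervals (206 to 231 and 207 to 237) overlap.

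Nearly all of the cow difference lay in 1 step, between 2-4-cell and 8-16-cell embryos, where EED rose 26.8-fold (95% exact interval 19.3 to 38.5, which like every interval here covers counting error only). On the log2(RPM + 1) scale the change was 4.59, and 217 of 12368 compared genes rose more (1.75%). Between 8-16-cell embryos and morulae cow EED differed by 0.02, a sign that turned under median-ratio scaling (-0.14) and quantile normalisation (-0.09). Pig EED climbed earlier and for longer: it rose at least 7.89-fold into 2-4-cell embryos and 11.99-fold (8.16 to 18.3) into 8-16-cell embryos, where 48 of 12145 compared genes rose more (0.395%). Its morula level was a further 3.48 times higher (3.03 to 4.00), without passing the call threshold given below. Blastocysts exceeded oocytes in EED 13.4-fold in cow (9.07 to 20.6) and at least 86.0-fold in pig.

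**Figure D1:**
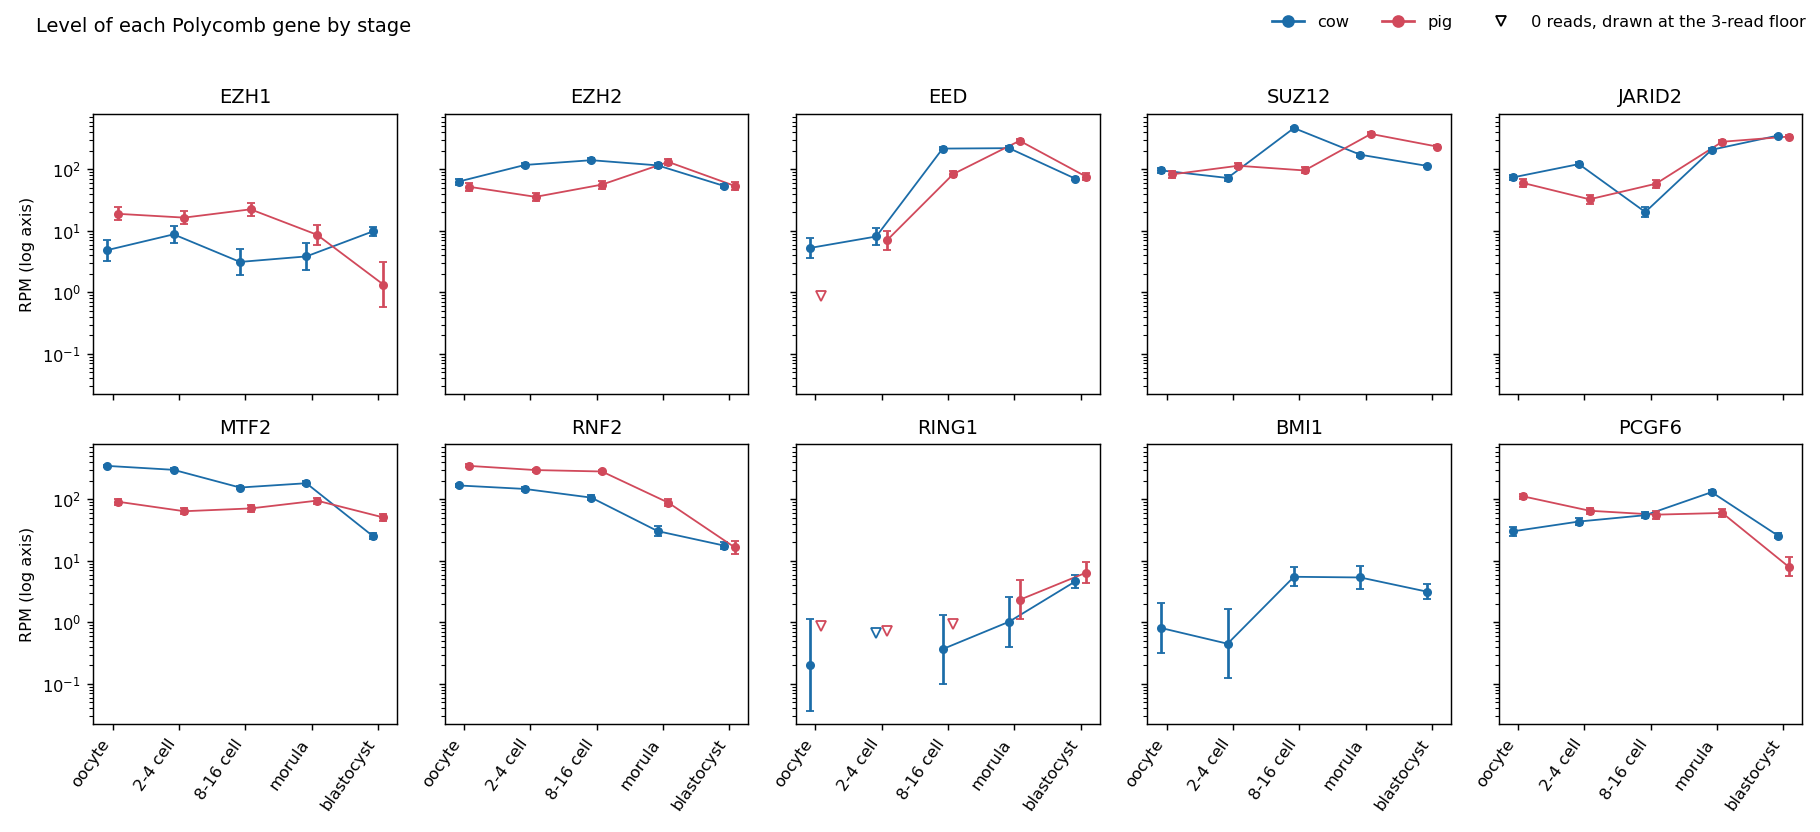
Level of the listed genes in each library, in RPM on a log axis, for cow (blue) and pig (red); points are single libraries, bars are 95% Wilson intervals and open triangles mark 0 reads, drawn at the 3-read floor and not joined to other points. EED climbs in both species from under 10 RPM in 2-4-cell embryos to 221 and 292 RPM in morulae, while RNF2 declines from oocyte to blastocyst.

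SUZ12, which holds PRC2 together, peaked 1 stage earlier in cow than in pig. Cow SUZ12 measured 96.1 RPM in oocytes, 72.5 RPM in 2-4-cell embryos, 469.6 RPM in 8-16-cell embryos, 173 RPM in morulae and 114 RPM in blastocysts. Pig SUZ12 measured 82.9, 115, 96.0, 377 and 235 RPM. The cow maximum was in 8-16-cell embryos (452 to 488) and the pig maximum in morulae (356 to 399.6).

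In cow SUZ12 rose 6.47-fold (5.76 to 7.29) into 8-16-cell embryos, and morulae were then 2.71-fold lower (2.49 to 2.96), without a call. In pig morulae exceeded 8-16-cell embryos 3.93-fold (3.46 to 4.47), a change of 1.96 that lies just under the threshold of 2. Blastocysts differed from oocytes in SUZ12 by 0.25 in cow and 1.49 in pig, also without a call.

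EZH2, the main H3K27 methyltransferase, had no called step in either species. Cow EZH2 measured 63.3 RPM in oocytes (56.6 to 70.7), then 118, 141 and 116 RPM, and 53.8 RPM in blastocysts (50.1 to 57.8). Pig EZH2 measured 52.1 RPM in oocytes (44.96 to 60.4), then 35.8, 56.5 and 132 RPM, and 53.9 RPM in blastocysts (46.9 to 61.9). Its highest level was 2.62 times its lowest in cow and 3.70 times in pig. Blastocyst and oocyte differed in EZH2 by -0.23 in cow, or 0.17 when scaled to non-mitochondrial gene reads. In pig they differed by 0.05, or -0.09 with median-ratio scaling and -0.01 with quantile normalisation, so no direction is given for EZH2 over the whole course.

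EZH1, its paralog with weaker catalytic activity, was lowest in blastocysts in pig and not in cow. Cow EZH1 measured 4.87, 8.79, 3.13, 3.85 and 9.80 RPM in order of stage, on 15 to 139 reads, and its intervals in 2-4-cell embryos (6.43 to 12.01) and blastocysts (8.30 to 11.6) overlap. Pig EZH1 measured 18.9, 16.4, 22.4, 8.66 and 1.34 RPM, the last on 5 reads. From oocyte to blastocyst EZH1 fell 14.1-fold in pig (5.75 to 45.0), a change of -3.09. Cow blastocysts had 2.01 times the oocyte level (1.30 to 3.25), a change of 0.88 without a call.

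JARID2, which belongs to the AEBP2-containing form of PRC2 and helps bring it to chromatin, was highest in both blastocyst libraries. Cow JARID2 measured 73.8, 122, 20.2, 208 and 355 RPM in order of stage. Pig JARID2 measured 60.1, 32.6, 58.4, 281 and 341 RPM. The lowest library was that of 8-16-cell embryos in cow and that of 2-4-cell embryos in pig.

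Around the cow minimum JARID2 fell 6.02-fold (4.90 to 7.46) and then rose 10.3-fold into morulae (8.42 to 12.7), a rise of 3.30 that 128 of 12286 compared genes exceeded (1.04%). Pig JARID2 rose 4.82-fold (4.10 to 5.68) at the same step into morulae. Over the whole course JARID2 rose 4.81-fold in cow (4.32 to 5.36) and 5.68-fold in pig (4.89 to 6.62). The span of the cow JARID2 row overlaps a U6 gene on the other strand, and since strand handling is not given its reads are uncertain to that extent.

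MTF2, a Polycomb-like protein that binds unmethylated CpG-rich DNA, was highest in cow oocytes and fell late. Cow MTF2 measured 351, 303, 156, 183 and 25.5 RPM in order of stage. Pig MTF2 stayed between 50.9 RPM in blastocysts and 95.6 RPM in morulae. In cow MTF2 fell 7.20-fold from morula to blastocyst (6.34 to 8.20) and 13.8-fold from oocyte to blastocyst (12.3 to 15.5). Pig blastocysts were 1.80-fold below pig oocytes (1.499 to 2.17), a change of -0.84 without a call.

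Other genes of these forms came from a list of 9 further PRC2 genes. AEBP2, the partner of JARID2, measured 15.6, 29.5, 164, 257 and 169 RPM in cow and 18.1, 23.0, 97.3, 348 and 219 RPM in pig. As with JARID2, blastocysts were called higher than oocytes in both species, 10.8-fold in cow (8.65 to 13.8) and 12.1-fold in pig (9.36 to 16.0). PHF19, another Polycomb-like protein, measured 115, 66.9, 106 and 5.33 RPM in pig and had 1 read in pig blastocysts. The ratio of pig oocyte to blastocyst was 427, with a counting interval of 76.2 to 16923. In cow PHF19 had 0, 3, 0, 0 and 19 reads, at most 1.34 RPM. MTF2 and PHF19 were thus each called lower in 1 species, MTF2 in cow and PHF19 in pig, and the difference between species was not tested. Cow PHF19, with 0 oocyte reads, could not be called lower. Pig PHF19 passed the filter through oocytes alone and could only be called lower. PHF1, also on the list, measured 18.3 RPM in cow oocytes and 34.1 RPM in cow blastocysts, without a call.

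RBBP7 and RBBP4, histone-binding subunits that PRC2 shares with other complexes, were called lower in cow blastocysts than in oocytes. RBBP7 fell 5.23-fold (4.84 to 5.65) and RBBP4 fell 4.07-fold (3.69 to 4.50), and both lost the call when scaled to non-mitochondrial gene reads and under quantile normalisation. In pig they changed by -1.15 (RBBP7) and -1.72 (RBBP4), without a call.

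RNF2, the main ubiquitin ligase of PRC1, was lowest in blastocysts of both species. Cow RNF2 measured 169 RPM in oocytes (158 to 181), then 148, 107 and 30.5 RPM, and 17.8 RPM in blastocysts (15.7 to 20.1). Pig RNF2 measured 351 RPM in oocytes (331 to 371), then 300.1, 285 and 88.6 RPM, and 16.6 RPM in blastocysts (12.97 to 21.3). The early pig differences were small: -0.22 into 2-4-cell embryos, or 0.02 with median-ratio scaling, and -0.08 into 8-16-cell embryos, or 0.00101 with quantile normalisation.

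Over the whole course RNF2 fell 9.50-fold in cow (8.24 to 11.0) and 21.1-fold in pig (16.3 to 27.7). Most of the difference lay after the 8-16-cell embryo, where the following steps were -1.78 and -0.75 in cow, neither called, and -1.67 and -2.35 in pig, the last of them called. A larger fall from oocyte to blastocyst was seen for 1121 of 12695 compared genes in cow (8.83%) and for 665 of 12501 in pig (5.32%).

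RING1, the paralog of RNF2, was detected late. Cow RING1 had 1, 0, 2 and 4 reads in the first 4 libraries and 66 reads in blastocysts, which was 4.65 RPM (3.66 to 5.92). Pig RING1 had 0 reads in the first 3 libraries, 7 reads in morulae (2.33 RPM) and 24 reads in blastocysts (6.43 RPM, 4.32 to 9.57). The blastocyst library was the highest in both species. Against oocytes RING1 was higher by a ratio of 22.9 in cow (3.98 to 919.8), on 1 oocyte read, and at least 7.24-fold in pig. RING1 passed the filter on low values through its later libraries alone, and its cow call over the whole course was lost under quantile normalisation (1.94) and with a filter of 5 RPM, which leaves 4 called members in cow.

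PCGF6, the PCGF protein of a variant PRC1 that represses germline genes, fell at the last step in both species. Cow PCGF6 measured 30.2, 43.7, 55.4, 131 and 25.7 RPM in order of stage. Pig PCGF6 measured 112, 65.5, 56.5, 60.3 and 8.04 RPM. From morula to blastocyst PCGF6 fell 5.10-fold in cow (4.45 to 5.85) and 7.49-fold in pig (5.07 to 11.4). From oocyte to blastocyst PCGF6 fell 13.95-fold in pig (9.61 to 21.0). In cow the change was -0.22, or 0.17 when scaled to non-mitochondrial gene reads, so no direction is given there.

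BMI1, a PCGF protein of canonical PRC1, stayed under 6 RPM in cow. It had 4 reads in oocytes and 2 reads in 2-4-cell embryos, and measured 5.52 RPM in 8-16-cell embryos (3.87 to 7.88), 5.39 RPM in morulae and 3.17 RPM in blastocysts. The step into 8-16-cell embryos was called higher (2.17), with a ratio of 12.3 (3.11 to 106) that rests on 2 reads. No other change of BMI1 passed the threshold.

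The calls were read against all genes. The comparison took in genes reaching 1 RPM in either library, and a call needed an absolute difference of 2 in log2(RPM + 1), which is 4-fold on that scale and understates changes of low genes. Between cow oocytes and 2-4-cell embryos 0 of 8 compared members were called, where 0.384% of all compared genes were. Into cow 8-16-cell embryos 4 of 9 were called (EED, SUZ12 and BMI1 higher, JARID2 lower) against a background of 27.9%. Into cow morulae 1 of 10 was called (JARID2, higher) against 12.6%, and into cow blastocysts 2 of 10 (MTF2 and PCGF6, lower) against 24.2%. Of the 4 called into 8-16-cell embryos, BMI1 passed the filter through the library where it is high and so had to differ in that direction or not be compared.

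Between pig oocytes and 2-4-cell embryos 1 of 8 compared members was called (EED, higher) against a background of 6.18%. With 0 oocyte reads EED passed the filter through 2-4-cell embryos alone, so it had to be higher or not be compared. Into pig 8-16-cell embryos EED alone was called again, 1 of 8, against 5.54%. Into pig morulae 1 of 9 was called (JARID2, higher) against 24.6%, and into pig blastocysts 3 of 9 (EZH1, RNF2 and PCGF6, lower) against 29.0%. EZH1 lost the last of these calls with median-ratio scaling (-1.94) and quantile normalisation (-1.79). At each pig step but the last a single member was called.

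**Figure D2:**
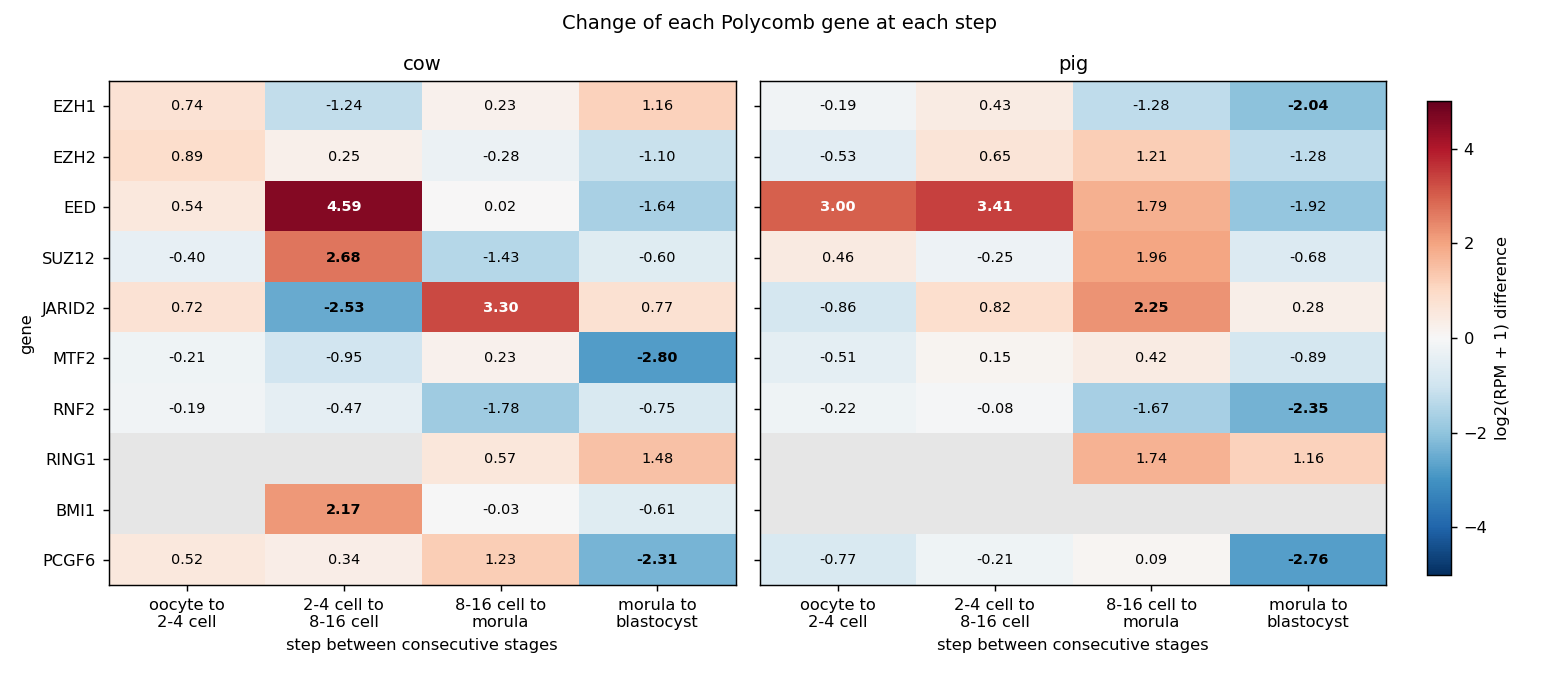
Change of each listed gene at each step between consecutive stages, as the difference in log2(RPM + 1), with red for higher and blue for lower; values of 2 or more in either direction are in bold and grey cells were not compared. In cow the largest value is EED at the step into 8-16-cell embryos (4.59), and in pig EED is in bold at the first 2 steps (3.001 and 3.41).

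Between oocyte and blastocyst 5 of 10 members were called in cow, against 41.3% of all compared genes. EED, JARID2 and RING1 were higher, where 22.5% of all compared genes were higher, and MTF2 and RNF2 lower, where 18.8% were lower. In pig 6 of 9 were called against a background of 47.1%. EED, JARID2 and RING1 were higher (background 27.2%), and EZH1, RNF2 and PCGF6 lower (background 20.0%). RING1 in both species and EED in pig passed the filter through blastocysts alone, so they could only be called higher. The members' median change was 0.56 in cow beside 0.17 for all compared genes, and 0.05 in pig beside 0.43. The members spread to both sides, from -3.73 (MTF2) to 3.51 (EED) in cow and from -4.32 (RNF2) to 6.27 (EED) in pig. Scaling to non-mitochondrial gene reads shifted the median of all genes by 0.41 in cow; the shift under quantile normalisation was -0.19 for cow genes and -0.41 for pig genes, so differences of that size depend on the scaling.

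**Figure D3:**
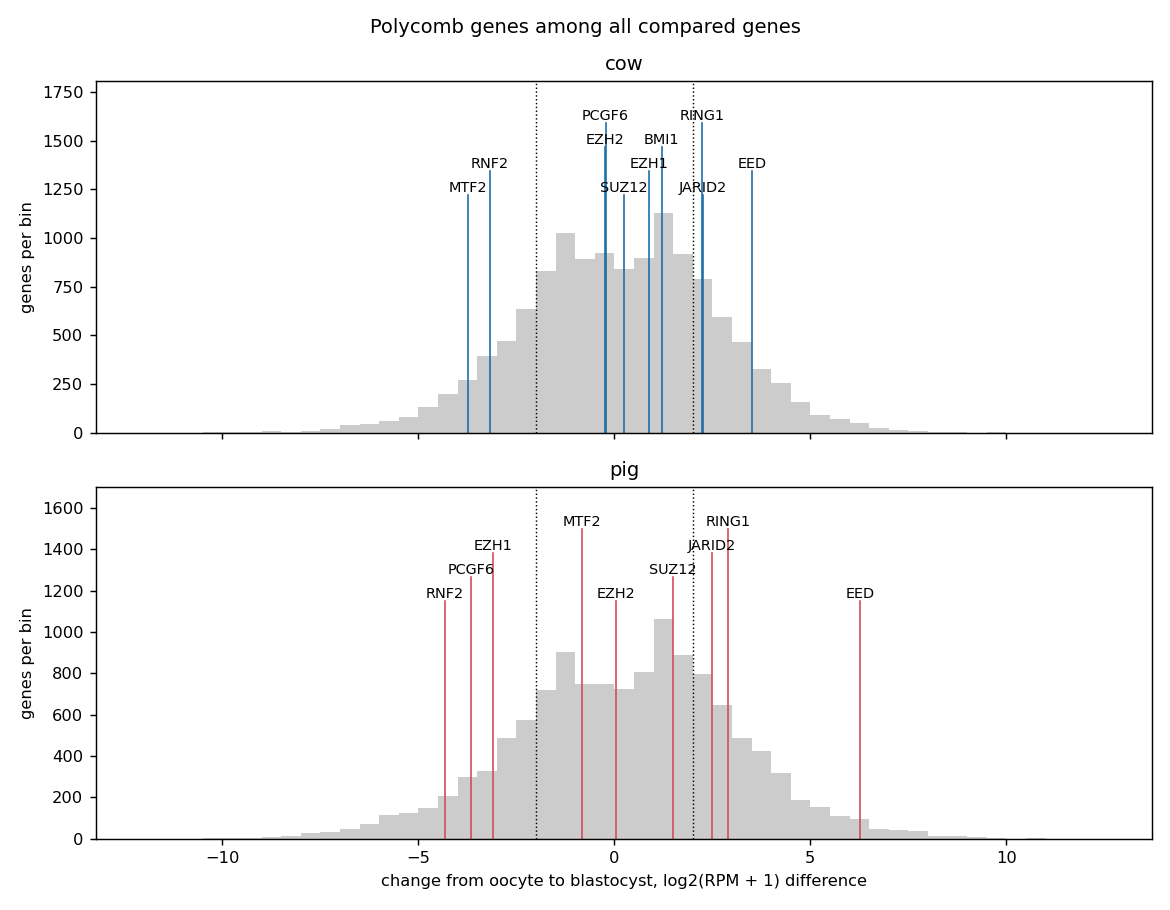
Distribution of the oocyte to blastocyst change, in log2(RPM + 1), over the 12695 cow and 12501 pig genes compared (grey bars, bins 0.5 wide), with a labelled line for each listed gene and dotted lines at the call thresholds. Lines lie on both sides of 0 in both species, from MTF2 to EED in cow and from RNF2 to EED in pig.

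Both species were then set side by side by the sign of their changes. Of the 9 members compared in both, 7 had the same sign between oocyte and blastocyst, beside 68.5% of 8566 shared symbols. The exceptions were EZH1 and EZH2, and the signs of EZH2 and of cow PCGF6 depend on the scaling; the count was 8 with median-ratio scaling and with quantile normalisation, and 7 under the other alternatives. EED, JARID2, RING1 and RNF2 were called in both species and in the same direction, 4 of 4, where 86.6% of the 2017 shared symbols called in both had the same direction. RING1 in both species and EED in pig passed the filter only through libraries where they are high, which fixed their direction, so the 4 are not independent evidence of agreement. Signs matched for 3 of 8 members at the first step, 3 of 8 at the second, 6 of 9 at the third and 8 of 9 at the step into blastocysts, beside 45.0%, 52.5%, 56.4% and 64.4% of shared symbols. At the third step the count was 4 of 9 with median-ratio scaling and with quantile normalisation, where the small changes of cow EED and pig PCGF6 turned. The count at the first step was 4 with quantile normalisation. The count at the second was 4 with median-ratio scaling and 2 with quantile normalisation. EZH1 was the exception at the step into blastocysts.

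The balance within each catalytic pair was read as a share of the pair's reads, whose level depends on the lengths of both genes. EZH2 made up 92.9% of EZH2 and EZH1 reads in cow oocytes (exact interval 89.6 to 95.4), 97.8% in 8-16-cell embryos and 84.6% in blastocysts (82.1 to 86.9). In pig the EZH2 share was 73.3% in oocytes (67.3 to 78.8), 68.5% and 71.6% at the next 2 stages, 93.9% in morulae and 97.6% in blastocysts (94.4 to 99.2). Between oocyte and blastocyst the share was lower in cow and higher in pig, with intervals that do not overlap.

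RNF2 made up 99.9% of RNF2 and RING1 reads in cow oocytes and 79.2% in cow blastocysts (74.4 to 83.6), or 84.6% in libraries thinned to equal depth. In pig it made up 1185 of 1185 reads in oocytes and 72.1% in blastocysts (61.4 to 81.2). For this pair the blastocyst share was the lower one in both species.

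**Figure D4:**
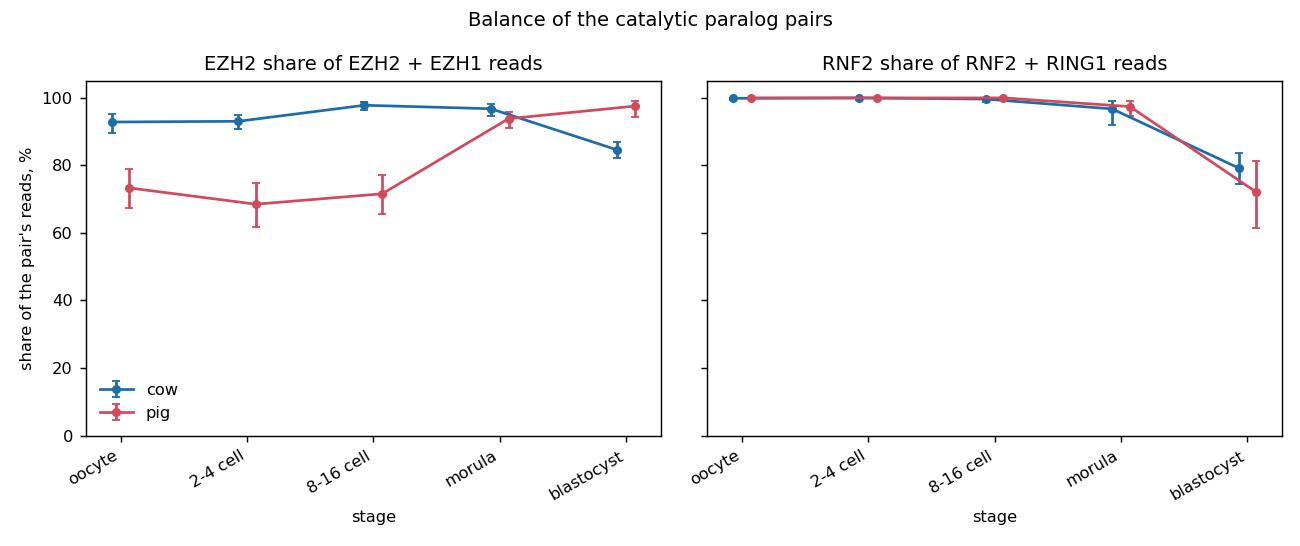
Share of reads of EZH2 within the EZH2 and EZH1 pair (left) and of RNF2 within the RNF2 and RING1 pair (right) at each stage, in percent; points are single libraries and bars are 95% exact binomial intervals. The EZH2 share ends at 84.6% in cow and 97.6% in pig, and the RNF2 share is lowest in both blastocyst libraries, at 79.2% and 72.1%.

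Over the whole list of 9 further PRC2 genes 7 were compared between cow oocytes and blastocysts, with 2 higher (AEBP2, LCORL), 2 lower (RBBP4, RBBP7) and 3 not called, and a median of 0.87. The counts of this and the following lists stand beside 41.3% of all genes called in cow and 47.1% in pig, and their medians beside 0.17 and 0.43 for all genes. In pig 6 were compared, with AEBP2 higher, PHF19 lower and 4 not called, and a median of -0.88. LCORL, which belongs to the Polycomb-like form, rose 8.51-fold in cow (5.91 to 12.7) and changed by -0.61 in pig without a call. EZHIP, an inhibitor of PRC2, was looked for under its older symbol CXorf67 after the tables were seen. In pig CXorf67 had 11, 9, 31, 6 and 0 reads in order of stage, with its highest level, 9.79 RPM (6.90 to 13.9), in 8-16-cell embryos.

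Of 24 further PRC1 genes 22 were compared in cow, with 4 higher, 4 lower and 14 not called (median -0.69), and 16 in pig, with 2 higher, 2 lower and 12 not called (median 0.30). KDM2B, which brings variant PRC1 to CpG islands, rose 33.1-fold in cow (22.4 to 51.2), and pig oocytes and blastocysts had 10.4 and 23.6 RPM without a call. RYBP, a subunit of variant PRC1, rose 9.93-fold in cow (8.13 to 12.3). In pig RYBP was highest in morulae, at 741 RPM, and its change between oocyte and blastocyst was 1.73. SCML2, a germline-enriched Polycomb protein, fell in both species, 34.2-fold in cow (23.2 to 52.3) and 14.4-fold in pig (8.76 to 25.1).

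CBX proteins, the subunits of canonical PRC1 that bind the H3K27 mark, were represented by CBX2 and CBX7. CBX7 had 0 reads in cow oocytes and 8.53 RPM in cow blastocysts, at least 14.02-fold higher, and CBX2 had 0 and 4 reads there. In pig CBX2 and CBX7 had 0 reads in both the oocyte and the blastocyst library, which allows up to 0.888 and 0.804 RPM. PHC1, PHC2 and PHC3 are paralogs through which PRC1 polymerises, and none was called. PHC1 changed by -0.75 in cow and -0.25 in pig, PHC2 by 1.48 and 1.83, and PHC3 by -1.92 and -1.76; the last 2 are outside the naming rule and were added after their values were seen.

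Among partners of variant PRC1 in cow, PCGF1 fell 23.5-fold (12.55 to 48.8) and AUTS2 fell 11.6-fold (9.08 to 15.0). In pig PCGF1 had 0 reads in both libraries and AUTS2 changed by -1.45 without a call. PCGF3 rose 16.9-fold in pig (8.00 to 42.98) and E2F6, a DNA-binding partner of PCGF6, rose at least 6.04-fold there, while BCORL1 fell 7.73-fold (3.96 to 16.8). In cow these 3 changed by -0.63, 1.55 and -1.30, without a call.

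Enzymes that undo Polycomb marks, with their partners, were read from a list of 9 genes. All 9 were compared in cow, with 3 higher, 2 lower and 4 not called (median -1.30), and 7 in pig, with 2 higher, 1 lower and 4 not called (median 0.50). KDM6A, an H3K27 demethylase, measured 5.07, 6.08, 69.6, 415 and 453 RPM in cow, an 89.3-fold rise (60.4 to 138) between oocyte and blastocyst. Pig KDM6A measured 86.7, 90.4, 103, 349.7 and 123 RPM, a change of 0.50 without a call. The other H3K27 demethylase, KDM6B, measured 5.27 and 13.7 RPM in cow oocytes and blastocysts, without a call.

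ASXL1, a cofactor of the H2A deubiquitinase BAP1, rose in both species, 124-fold in cow (59.97 to 308) on 7 oocyte reads and 13.9-fold in pig (9.92 to 20.1). ASXL3, a paralog of ASXL1, had 0 reads in both blastocyst libraries, at least 82.5-fold lower than in oocytes in cow and at least 47.1-fold lower in pig. BAP1 itself fell 13.3-fold in cow (6.10 to 33.1), on 37 and 8 reads. It rose 5.85-fold in pig (3.24 to 11.4), on 13 and 84 reads. ASXL3 in both species and BAP1 in cow passed the filter through oocytes alone, which fixed their direction. FOXK1, which brings BAP1 to DNA, was higher in cow blastocysts by a ratio of 11.99 (4.58 to 44.6), on 4 oocyte reads. Cow FOXK1 passed the filter through blastocysts alone, which fixed its direction, and pig FOXK1 changed by 1.33 without a call.

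HOX genes, classical Polycomb targets, were mostly at few or no reads. In cow 34 of 39 HOX symbols had a row and 12 of these had 0 reads in all 5 libraries, and in pig 14 of 36 rows did. Between oocyte and blastocyst 10 were compared in cow, with HOXB4 higher, HOXA9 lower and 8 not called (median -1.20, or -0.92 with 0 reads set to the floor). In pig 7 were compared, with HOXA4 and HOXD8 lower and 5 not called (median -1.47, or -0.62). Of the compared genes only HOXA3 in cow and HOXD8 in pig reached 1 RPM in both libraries. The others, HOXB4, HOXA9 and HOXA4 included, passed the filter only through the library where they are high. That fixed their direction, and the medians carry the same limit. HOXB4 went from 0 reads in cow oocytes to 13.9 RPM in blastocysts, at least 22.8-fold higher, and HOXA9 from 6.49 RPM to 0 reads, at least 30.7-fold lower. In pig HOXD8 fell 4.98-fold (3.62 to 6.99) and HOXA4 went from 13 reads to 0, at least 4.79-fold lower.

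**Figure D5:**
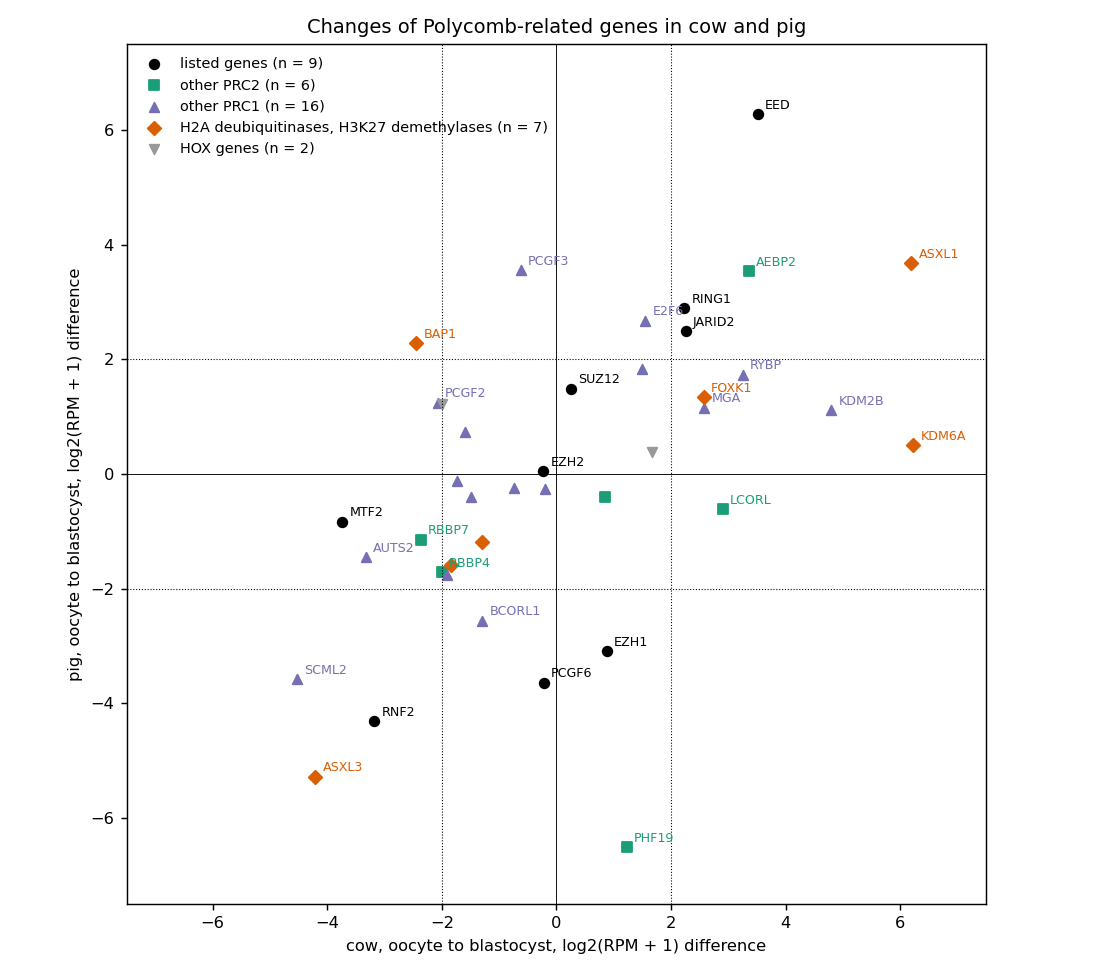
Change between oocyte and blastocyst in cow (x axis) against pig (y axis), in log2(RPM + 1), for the genes of each list compared in both species; dotted lines mark the call thresholds, and symbols are printed for the listed genes and for others past a threshold. EED, JARID2, RING1, AEBP2 and ASXL1 lie past both upper thresholds, RNF2, SCML2 and ASXL3 past both lower ones, and BAP1 past them in opposite directions. RING1 and ASXL3 in both species, EED in pig and BAP1 in cow passed the filter only through the library where they are high.

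Genes with profiles most like those of EZH2 and RNF2 were named by the root mean square difference of log2(RPM + 1) over the 10 libraries, centred within each species, across 9687 shared symbols. For EZH2 they were SRR (0.25), YLPM1 (0.26), SLC39A9 (0.26), GSPT1 (0.26) and PPP4R2 (0.28), where the median over all symbols was 1.15. For RNF2 they were CSNK1G3 (0.25), CASP8AP2 (0.28), DDHD1 (0.28), CENPW (0.30) and HHLA2 (0.32), with a median of 1.77. Among the members themselves the closest pair was EZH2 and SUZ12 (0.68), and the most distant was EED and RNF2 (3.64).

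The rows of the members lie at the following places, in the builds named in the submitters' processing notes. In cow (UMD3.1) EED is on chromosome 29 from 9325136 to 9355669, SUZ12 on 19 from 18507782 to 18544957, EZH2 on 4 from 112815327 to 112848415, EZH1 on 19 from 43395930 to 43428213, JARID2 on 23 from 41165798 to 41302731 and MTF2 on 3 from 50490450 to 50560463. Of the cow PRC1 genes RNF2 is on 16 from 67600963 to 67608919, RING1 on 23 from 7338399 to 7341500, BMI1 on 13 from 23709778 to 23712913 and PCGF6 on 26 from 24153121 to 24183826. In pig (Sscrofa11.1) EED is on chromosome 9 from 20123509 to 20158743, SUZ12 on 12 from 42983388 to 43032751, EZH2 on 9 from 109385019 to 109451018, EZH1 on 12 from 20118356 to 20139419, JARID2 on 7 from 11303859 to 11602097 and MTF2 on 4 from 124048806 to 124124440. Of the pig PRC1 genes RNF2 is on 9 from 126224251 to 126285201, RING1 on 7 from 25251501 to 25256223 and PCGF6 on 14 from 114249807 to 114287417. The RNF2 row covers 7957 bases in cow and 60951 bases in pig, so the gene models behind the counts differ, and no level of one species is compared with the other.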

How the data were processed

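RNA of 10 libraries, 1 per stage and species, was isolated with PicoPure, amplified with Ovation RNA-Seq System V2 and made into libraries with 8 PCR cycles, per the labels' protocols. The submitters' processing notes name Trim Galore 0.6.4, HISAT2 2.1.0 and the builds UMD3.1 and Sscrofa11.1; the counting tool, strand handling, placement of reads with several matches and duplicate removal are not given in the sources used here. The deposited values are log2 RPM (reads scaled to 1000000 reads of the library), as worked out from the values: below 1000 reads, 100% of the values above the lowest are whole multiples of 1 read (within 0.01 of a read), and 0 reads are written as 0.9 of a read. Reads, RPM (0 reads as 0) and read totals were recovered from them. Without molecular identifiers reads are not independent molecules, so Wilson and exact (Clopper-Pearson) intervals, all at 95%, cover counting error only.

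Changes are differences of log2(RPM + 1) within a species, across all genes, with the highest-mean row of a repeated name (190 cow and 97 pig names), leaving 20799 and 20502 genes. With 1 library per group no test was run. The calling code was checked on simulated counts with known changes, which gives no error rate for the calls reported. The members and lists were chosen with earlier results of these data known. Named besides the members were, per wider list and species, up to 3 called genes with the largest rise and fall, and 9 fixed genes. Alternatives covered pseudocount, scaling, depth, threshold, filter and repeated rows. Python 3.11.15, numpy 2.4.6, pandas 2.3.3 and scipy 1.17.1 were used.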

Additional observations from a re-analysis of the deposited data

Results flagged for a closer look

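EZH1 and SUZ12 each moved in opposite directions in cow and pig at the same step, by at least 1 on the log2(RPM + 1) scale in each species and with counting intervals of the ratio that leave out 1. The difference between species was not tested, since each stage had 1 library. Between morula and blastocyst EZH1 differed by 1.16 in cow (15 and 139 reads) and -2.04 in pig (26 and 5 reads). The cow value was 0.99 with quantile normalisation and 0.97 at equal depth, under the size of 1 used here. Between 8-16-cell embryos and morulae SUZ12 differed by -1.43 in cow and 1.96 in pig, with the maximum in 8-16-cell embryos in cow and in morulae in pig.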

How the results depend on the processing

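No paired analysis was possible because each group had 1 library, and for the same reason no library could be left out. The alternatives were a pseudocount of 0.25 RPM, 3 other scalings, equal depth, call thresholds of 1 and 3, no filter or 5 RPM, and the sum of repeated rows. None of the 24 called changes of members turned its sign under the 6 alternatives that move values. A threshold of 1 gave 4 called members into cow morulae, 6 into cow blastocysts, 7 into pig morulae and 6 into pig blastocysts, where 44.4%, 58.6%, 59.1% and 62.1% of all compared genes were called. A threshold of 3 gave 1 into cow 8-16-cell embryos, 0 into cow blastocysts, 3 between cow oocytes and blastocysts, 0 into pig morulae and 0 into pig blastocysts, where 9.29%, 8.55%, 21.6%, 7.39% and 12.4% of all compared genes were. The count into pig morulae became 2 with the pseudocount of 0.25 RPM (adding RING1, 3.37), beside 35.6% of all compared genes. It was also 2 when scaled to non-mitochondrial gene reads (RING1, 2.08), beside 26.9%. RING1 had 0 reads in pig 8-16-cell embryos and passed the filter through morulae alone.

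The wider lists were put through the same alternatives after seeing the data, between oocyte and blastocyst. With the lower pseudocount 8 HOX genes were called in cow and 6 in pig, where 2 were in each before. That pseudocount called 52.9% of all compared genes in cow and 58.0% in pig. A filter of 5 RPM left 1 HOX gene called in pig, beside 53.2% of all compared genes. Scaling to non-mitochondrial gene reads and quantile normalisation each left 2 of the 4 further PRC2 genes called in cow. These settings called 45.3% and 40.0% of all compared cow genes. A threshold of 1 called 16 further PRC1 genes, 9 opposing enzymes and partners and 8 HOX genes in cow, and 11, 6 and 6 in pig, with 4 further PRC2 genes in pig, beside 72.04% and 75.7% of all compared genes. A threshold of 3 left 1 further PRC2 gene, 3 opposing enzymes and partners and 1 HOX gene in cow, and 2 further PRC1 genes and 0 HOX genes in pig, beside 21.6% and 27.1% of all compared genes. Thinning to equal depth lost and gained 0 of the 24 calls. Calls of RING1, BMI1 and pig EZH1 still involve libraries with 5 reads or fewer. So do those of pig EED into 2-4-cell embryos and between oocyte and blastocyst.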
